A study of Mus musculus with 21 samples.

Results

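Dendritic cells (DCs) of mouse spleen that carry the antigen of the antibody 33D1 were set against B cells of the same organ, to ask what separates these antigen-presenting cell types and which genes they hold in common. The comparison rests on 6 of the 21 Affymetrix arrays of the series, all samples titled 33D1_WT 1 to 3 and B_cells 1 to 3. The 33D1 DCs were sorted from wild-type C57BL/6 mice, and each array held RNA pooled from 40 to 80 animals. The B cells came from wild-type C57BL/6 mice as well, with pools of 5 to 8 animals per array. Other groups of 3 arrays served as points of reference: DEC205 DCs of wild-type mice, also pools of 40 to 80, CD8 T cells and CD4 T cells, again wild-type pools of 5 to 8, and 33D1 DCs and DEC205 DCs from pools of 20 C57BL/6 mice that had been injected with Flt3L melanoma and killed on days 10 to 12. Per the series' design text, 33D1 binds the CD11c-high DCs that lack CD8, and the arrays were made to find the membrane protein the antibody recognises. The ages of the mice and the markers used to sort the B cells were not given in the sources used here.

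DCs take up antigen in tissues and display its peptides on MHC class I and class II molecules to T cells. B cells capture antigen with their own receptor, the membrane immunoglobulin that signals through CD79A and CD79B, and load its peptides on the same class II molecules. The spleen holds classical DCs of a CD8-negative kind, with SIRPα, CD4 and the transcription factor IRF4, and of a CD8-positive kind, with DEC205, XCR1 and the transcription factor IRF8.

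Values are probe set signals on the authors' common scale, and a difference is 33D1 DCs minus B cells in log2(signal + 48.6), 1 unit being 2-fold. A gene was called at a Benjamini-Hochberg adjusted p under 0.05 in limma's moderated test, fitted over all 21 arrays with 3 arrays a group. Each array is 1 pool of mice and the labels do not say whether a group's pools came from separate sorts, so the p-values cover the spread between these pools. Fewer cells of a type and less RNA per cell cannot be told apart in bulk RNA of this kind.

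The labelled cell types were checked against the genes that define them. Itgax, which encodes CD11c, had signals of 16934, 19355 and 16758 in 33D1 DCs, against 38.8, 193.6 and 215.4 in B cells. Tgm2, a transglutaminase of CD8-negative DCs, had 17323, 18660 and 17268 in 33D1 DCs, against 111.7, 161.7 and 216.2 in B cells. Cd79a had 56.9, 35.5 and 161.6 in 33D1 DCs, against 29397, 27544 and 30634 in B cells. No 33D1 array approached a B cell array for any of the 3 genes. A free-text field of the B cell samples names DCs as their source, and their Itgax and Cd79a signals go against that field and with their titles. Clec4a4, the gene of the 33D1 antigen in mice, was not analysed here.

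Replicate arrays correlated at 0.964 to 0.979 within 33D1 DCs and 0.963 to 0.976 within B cells over all genes tested, and 33D1 arrays correlated with B cell arrays at 0.802 to 0.82. A few arrays stood apart. B cell array 3 had a Jchain signal of 8362, against 337.3 and 321.8 on the other B cell arrays, and Jchain encodes the joining chain that plasma cells secrete with IgM and IgA. 33D1 array 2 was high in genes induced by stimulation, with 5684, 12594 and 4374 for Ptgs2. Among the reference groups, DEC205 array 3 carried more of the 33D1 DC genes (254.9, 319.5 and 1413 for Tgm2), and 33D1 array 3 of the Flt3L mice more of the DEC205 DC genes (101, 100.5 and 463.3 for Xcr1). Apoe, Jchain, Mki67 and Xcr1 were chosen here and below after their values were seen.

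Markers of other spleen cells were read on the same arrays. In the T cell list of 12 tested genes, the summed signal was 1271 to 1353 in 33D1 DCs and 5999 to 6704 in B cells, and Cd3d, a chain of the T cell receptor complex, stood at 19.9 ± 5.27 in 33D1 DCs and 26.2 ± 8.45 in B cells (SD, n = 3), against 22985 in CD4 T cells. Cd2, an adhesion receptor that B cells also carry, made up most of the B cell sum, with 71.3, 13.9 and 68.8 in 33D1 DCs, against 5826, 5173 and 5344 in B cells. The type 1 DC list of 13 genes had 1 gene called higher and 3 lower in 33D1 DCs (beside 15.6% and 17.8% of all genes). Xcr1 averaged 161.2 ± 42.8 in 33D1 DCs and 118 ± 73.4 in B cells, against 12236 in DEC205 DCs. The macrophage and monocyte list of 10 genes summed to 13416 to 19268 in 33D1 DCs and 2092 to 2833 in B cells, with Csf1r, Adgre1 and Lyz2 called higher in 33D1 DCs and C1qb, a complement gene of tissue macrophages, low in both at 205.8 ± 92.9 in 33D1 DCs and 137.3 ± 71.9 in B cells. The neutrophil list of 8 genes summed to 2377 to 3747 in 33D1 DCs and 659.9 to 1348 in B cells, and S100a9 reached 145, 513.3 and 130 in 33D1 DCs, against 16.7, 18.3 and 29.3 in B cells, a call that was lost without 33D1 array 2 (adjusted p = 0.0773). The 10 plasmacytoid DC markers summed to 6051 to 6658 in 33D1 DCs and 27655 to 28703 in B cells, most of the B cell sum being Ly6d, which the B cell surface list also holds. The NK list summed to 1558 to 2038 in 33D1 DCs and 757.3 to 1062 in B cells, the erythroid list to 5127 to 5414 in 33D1 DCs and 2778 to 3414 in B cells and the platelet list to 749.9 to 1610 in 33D1 DCs and 914.5 to 1116 in B cells. No marker list was at 0, and the part of such cells in the results was not tested.

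Of 13284 genes tested, 2071 were higher in 33D1 DCs than in B cells (15.6%) and 2370 were lower (17.8%). At a difference of at least 2-fold, 1190 were higher (8.96%) and 808 lower (6.08%), so the large changes leaned toward 33D1 DCs and the small ones toward B cells. Without 33D1 array 2 the counts were 1862 higher and 1992 lower, and without B cell array 3 they were 2003 higher and 2167 lower. The median difference over all genes was -0.06. The 95% interval of the difference lay inside -1 to 1 for 8375 genes (63%), which are called held at a like level below. The 3 arrays of the groups did not overlap for 2632 genes with 33D1 DCs above (19.8%) and 3309 with 33D1 DCs below (24.9%). These shares over all genes are the background for the counts in the gene lists below. The lists were written with earlier results of these data known, so their counts and ranks are descriptions.

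The 15 genes with the largest differences toward 33D1 DCs joined known DC genes with others less tied to the lineage. S100a4, a calcium-binding protein of motile cells, had signals of 20505, 25405 and 22670 in 33D1 DCs, against 18, 66.9 and 45.5 in B cells (log2 difference 7.99, SE 0.63, adjusted p = 1.1e-09). It was the largest difference upward, and its B cell signals lay near the 25th percentile of the whole table (48.6), so the offset holds the log2 value down. Tbc1d4, a regulator of vesicle traffic through Rab GTPases, had 12321, 15554 and 11093 in 33D1 DCs, against 17.1, 6.3 and 16.1 in B cells (log2 difference 7.71, SE 0.18, adjusted p = 7.2e-18). Ccl5, a chemokine that attracts T cells, had 11488, 13974 and 8894 in 33D1 DCs, against 16.7, 31 and 25.6 in B cells (log2 difference 7.28, SE 0.41, adjusted p = 4.94e-12). In all 3 genes the lowest 33D1 array lay far above the highest B cell array. Cd7 (7.14), an immunoglobulin-family receptor better known on T and NK cells, Ddr1 (7.09), a collagen-binding receptor tyrosine kinase, Sash1 (6.67), Fscn1 (6.58), the actin-bundling fascin of DC dendrites, Marveld1 (6.46), Tgfbi (6.45), Kit (6.39), the receptor of stem cell factor, Bex6 (6.22) and Cyp4f16 (6.12) filled the list with Ptgs2, Itgax and Tgm2. Marveld1 read 7.11 without B cell array 1.

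The 15 largest differences toward B cells were led by genes of the B cell receptor. Cd79a stood at 0.29% of its B cell signal in 33D1 DCs (log2 difference -7.89, SE 0.37, adjusted p = 2.28e-13). Ly6d, a surface protein that marks early B lineage commitment, had 13.6, 82.2 and 149.3 in 33D1 DCs, against 22278, 20111 and 21080 in B cells (log2 difference -7.5, SE 0.42, adjusted p = 4.24e-12). Fcmr, the Fc receptor of IgM, had 57.1, 105.8 and 147.3 in 33D1 DCs, against 22315, 21460 and 24273 in B cells (log2 difference -7.27, SE 0.3, adjusted p = 2.85e-14). Blnk, the adaptor that links Syk to phospholipase C-γ2, had 20, 81.2 and 20.9 in 33D1 DCs, against 11364, 12200 and 11443 in B cells (log2 difference -7.1, SE 0.45, adjusted p = 3.49e-11). DEC205 DCs were as low, with means of 80.3 for Ly6d, 99.1 for Fcmr and 40.3 for Blnk. Pou2af1 (-7.02), the coactivator OBF-1, Cd55 (-6.85), which protects cells from complement, and Scd1 (-6.89), a fatty acid desaturase, were also among them. So were the light chain and heavy chain probe sets Iglv1 (-7.93), Igk (-6.98), Igkv8-30 (-7.28), Igkv9-120 (-6.51) and Ighv14-2 (-7.39), which share sequence between segments and cannot be assigned to 1 gene with certainty. Gimap6 (-6.58), Gimap4 (-6.44) and Gimap1 (-6.18), GTPases of lymphocyte survival, completed the 15. They are not particular to B cells: Gimap4 averaged 119.1 ± 28.8 in 33D1 DCs and 14375 ± 1517 in B cells (SD, n = 3 each), beside 24509 ± 1936 in CD4 T cells.

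**Figure D1:**
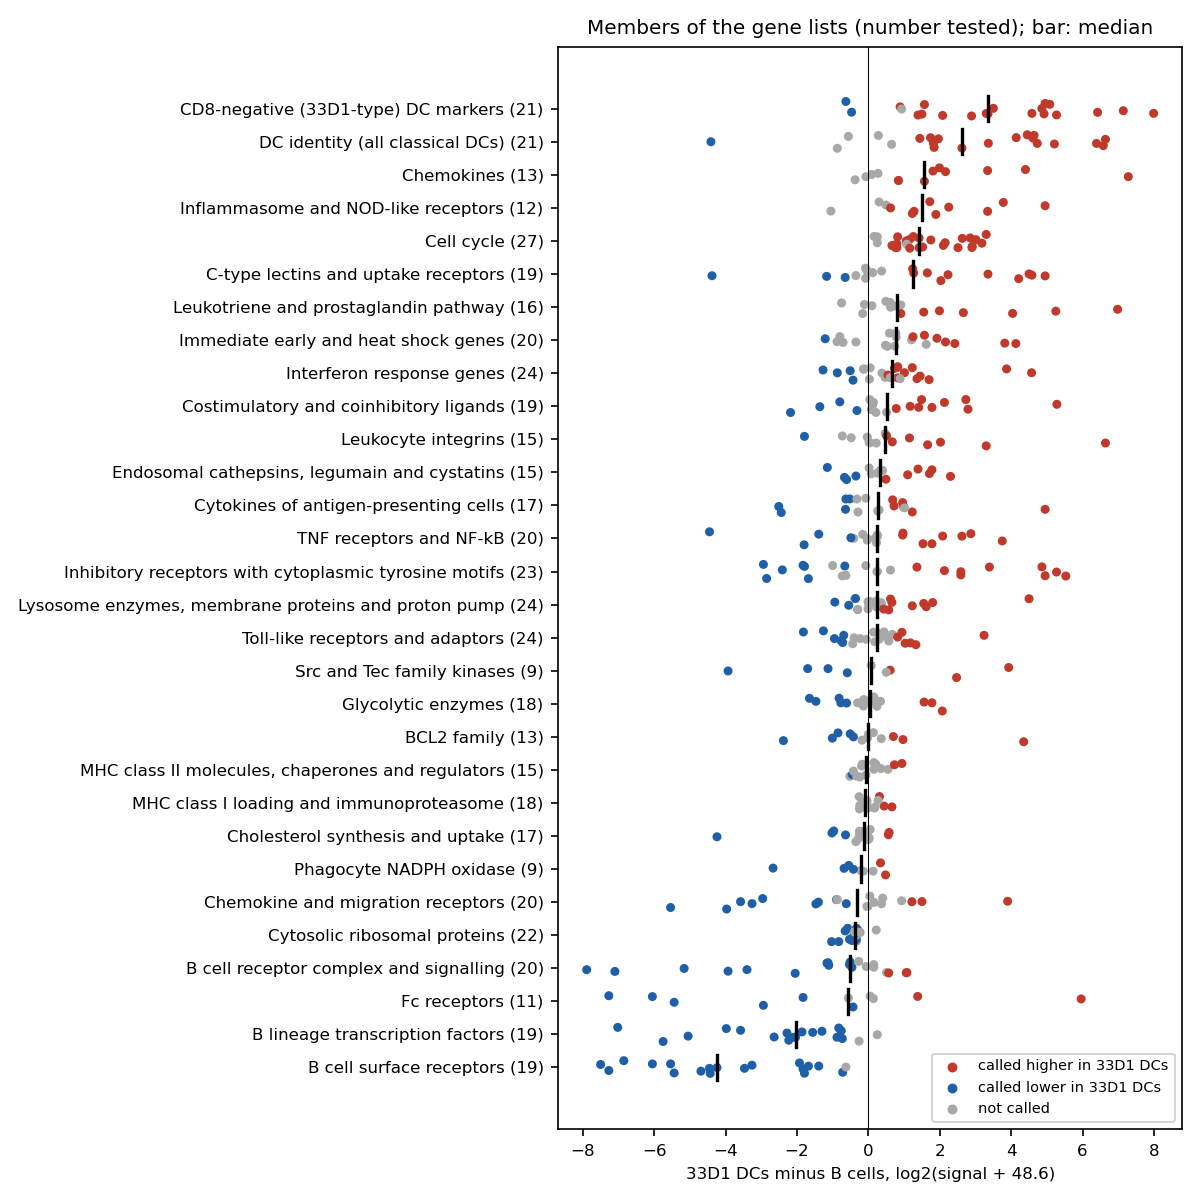
Log2 difference (33D1 DCs minus B cells) of each tested member of 30 gene lists, ordered by the median, which a black bar marks; numbers in brackets are members tested. Red members were called higher in 33D1 DCs, blue lower and grey not called; markers of DCs, chemokines and cell cycle genes lie to the right, B cell receptors and transcription factors to the left, and MHC class I and class II lists near 0.

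Growth factor receptors and transcription factors of the DC lineage separated the cell types clearly. Of 21 tested genes of classical DC identity, 16 were higher and 1 lower in 33D1 DCs (beside 15.6% and 17.8% of all genes). Their median log2 difference was 2.62. Flt3, the receptor for the main DC growth factor, had signals of 4738, 5567 and 4494 in 33D1 DCs, against 110.6, 178.9 and 181 in B cells (log2 difference 4.61, SE 0.16, adjusted p = 3.96e-15). Kit had 7049, 6678 and 8272 in 33D1 DCs, against 61.2, 15.7 and 46.5 in B cells (log2 difference 6.39, SE 0.21, adjusted p = 1.45e-15). Zbtb46, a transcription factor that marks classical DCs, had 3105, 2096 and 2445 in 33D1 DCs, against 56.8, 50.7 and 55 in B cells (log2 difference 4.64, SE 0.24, adjusted p = 1.02e-12). The groups lay apart for all 3 genes, with B cells near T cells, whose Flt3 means were 107 in CD4 and 152.8 in CD8 T cells. Batf3, a leucine zipper factor needed by CD8-positive DCs, had 3697, 3585 and 2933 in 33D1 DCs, against 38.7, 108.5 and 9.8 in B cells (log2 difference 5.21, SE 0.24, adjusted p = 2.14e-13), and its DEC205 mean was 4797. Spi1, which encodes PU.1, a factor that both lineages use, averaged 7079 ± 711.6 in 33D1 DCs and 1965 ± 195.2 in B cells (SD, n = 3 each; log2 difference 1.82). Irf8 was the member called lower, with 249, 456.4 and 250.3 in 33D1 DCs, against 7733, 7597 and 7272 in B cells (log2 difference -4.41, SE 0.42, adjusted p = 2.58e-08), and DEC205 DCs exceeded both at 22700, 26772 and 24718. The other factor of the pair, Irf4, was not called (log2 difference -0.56, 95% interval -1.35 to 0.23). Csf2ra, Csf2rb, Csf1r, Csf3r, Id2, Nr4a3, Relb, Dpp4 and Nfil3 were called higher as well, and Cd83, Ccr7 and Bcl6 overlapped between the groups.

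Markers of CD8-negative DCs formed the list with the highest median. That list was written with earlier results of these data known and holds Tgm2, used above to check the labels, so its rank is no test. Of 21 tested, 18 were higher and 2 lower in 33D1 DCs (beside 15.6% and 17.8% of all genes), with a median log2 difference of 3.35. Sirpa, an inhibitory receptor for CD47, had 9189, 10257 and 11745 in 33D1 DCs, against 365, 263.7 and 305.8 in B cells (log2 difference 4.86, SE 0.34, adjusted p = 1.77e-10). Cd4 had 2510, 2226 and 2632 in 33D1 DCs, against 30.8, 25.2 and 19.7 in B cells (log2 difference 5.08, SE 0.3, adjusted p = 8.51e-12), while CD4 T cells averaged 6384. Cd209a, a C-type lectin related to DC-SIGN, had 3593, 3839 and 4182 in 33D1 DCs, against 177, 113 and 72.6 in B cells (log2 difference 4.58, SE 0.26, adjusted p = 6.47e-12). Each of these 3 genes was low on every B cell array. The 2 called lower were Notch2, a receptor that both CD8-negative DCs and marginal zone B cells need, at 5542 ± 587 in 33D1 DCs and 7739 ± 1065 in B cells (SD, n = 3 each; adjusted p = 0.0142), and Ltb, which encodes lymphotoxin β, at 15460 ± 318.6 in 33D1 DCs and 23959 ± 1305 in B cells (adjusted p = 0.0257). Neither call held without 33D1 array 1, without B cell array 1 or with arrays centred on their medians. Dtx1, a Notch-regulated gene, was high in both, with 11842, 11912 and 9992 in 33D1 DCs, against 4212, 6253 and 8384 in B cells (log2 difference 0.89), with a DEC205 mean of 409.3.

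Receptors for uptake followed the same division. Among 19 lectins and uptake receptors, 10 were higher and 3 lower in 33D1 DCs (beside 15.6% and 17.8% of all genes). Their median log2 difference was 1.24. Clec4a2, an inhibitory lectin of the DCIR family, had 2773, 2821 and 2964 in 33D1 DCs, against 22.7, 47.6 and 71.4 in B cells (log2 difference 4.95, SE 0.31, adjusted p = 2.81e-11), and near-identical Clec4a genes may share its probes. Cd68, a glycoprotein of late endosomes, had 6685, 6304 and 5734 in 33D1 DCs, against 206.9, 157.9 and 360.2 in B cells (log2 difference 4.5, SE 0.18, adjusted p = 1.32e-14), and Clec7a, the β-glucan receptor Dectin-1, averaged 2922 ± 1390 in 33D1 DCs and 101.3 ± 22.1 in B cells (log2 difference 4.21). On none of the 3 genes did the groups overlap. Cd36, a scavenger receptor, ran the other way with 55.5, 72 and 55.1 in 33D1 DCs, against 1678, 2158 and 3056 in B cells (log2 difference -4.38, SE 0.34, adjusted p = 7.82e-10), and DEC205 DCs averaged 8787. Ly75, the gene of DEC205 itself, had 117.4, 171.8 and 218.8 in 33D1 DCs, against 308.4, 253.7 and 299 in B cells (log2 difference -0.65, SE 0.22, adjusted p = 0.0273). That call was lost without 33D1 array 1 or 2 and without B cell array 1 or 3 (adjusted p = 0.0537 to 0.159).

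Cell cycle genes were higher in 33D1 DCs in 23 of 27 tested (beside 15.6% of all genes), with a median log2 difference of 1.42. None was lower (limma, 0 at an unadjusted p under 0.05), beside 17.8% of all genes. Rrm2, a subunit of the enzyme that makes deoxynucleotides, had 4734, 4218 and 4862 in 33D1 DCs, against 355.5, 383.3 and 1313 in B cells (log2 difference 2.91, SE 0.33, adjusted p = 3.83e-07). Birc5, the mitotic protein survivin, had 2371, 1931 and 2063 in 33D1 DCs, against 89.7, 107.1 and 587.3 in B cells (log2 difference 3.18, SE 0.53, adjusted p = 6.58e-05). B cell array 3 was the highest of its group in both and still lay below all 33D1 arrays, and Mki67 showed the same order with 3634, 3450 and 4086 in 33D1 DCs, against 305.6, 209.4 and 563.9 in B cells. DEC205 DCs also had a high Mki67 mean of 2894. Mcm2, Pcna and Ccne1, which act at the start of DNA replication, overlapped between the groups. Without B cell array 3, 22 of the 27 were called higher.

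Among chemokines and genes of lipid mediators, calls were toward 33D1 DCs, and cytokine genes were called in both directions. All genes together gave 15.6% higher and 17.8% lower. Of 13 chemokines, 8 were higher and none lower in 33D1 DCs (limma, with 1 lower at an unadjusted p under 0.05), with a median log2 difference of 1.57. Ccl3, an inflammatory chemokine, had 1743, 3368 and 1401 in 33D1 DCs, against 6, 103.2 and 66.2 in B cells (log2 difference 4.4, SE 0.52, adjusted p = 5.63e-07). Of 16 genes of leukotriene and prostaglandin synthesis and sensing, 7 were higher and none lower in 33D1 DCs (limma, with 1 lower at an unadjusted p under 0.05), with a median log2 difference of 0.81. Alox5ap, the protein that presents arachidonic acid to 5-lipoxygenase, had 14366, 16270 and 14576 in 33D1 DCs, against 260, 343.5 and 466.8 in B cells (log2 difference 5.25, SE 0.17, adjusted p = 9.71e-16). Ptgs2, the inducible cyclooxygenase, had 5684, 12594 and 4374 in 33D1 DCs, against 1.9, 1.6 and 13.8 in B cells (log2 difference 6.98, SE 0.7, adjusted p = 5.32e-08), 33D1 array 2 being the highest and all B cell arrays being near the floor of the scale. Ptger3, a receptor of prostaglandin E2, averaged 1654 ± 74.9 in 33D1 DCs and 55.1 ± 12.4 in B cells (log2 difference 4.04), and its DEC205 mean was 62.3. Of 17 cytokine genes 6 were called higher and 5 lower, among them Il1b, with 9135, 13834 and 6056 in 33D1 DCs, against 251.9, 185.6 and 322.7 in B cells (log2 difference 4.95, SE 0.46, adjusted p = 1.77e-08). On the B cell side stood Lta, the lymphotoxin α gene, at 139.6 ± 57.1 in 33D1 DCs and 1000 ± 209.8 in B cells (log2 difference -2.51) and Il12a, a subunit of interleukins 12 and 35, at 152.4 ± 48.4 in 33D1 DCs and 1026 ± 170.8 in B cells (log2 difference -2.44). The count called lower was 3 without 33D1 array 2 or without B cell array 3.

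Sensors of danger and interferon genes leaned the same way, beside 15.6% higher and 17.8% lower over all genes. Of 12 inflammasome and NOD-like receptor genes, 9 were higher and none lower in 33D1 DCs (limma, with 1 lower at an unadjusted p under 0.05), with a median log2 difference of 1.5. Mefv, the gene of pyrin, had 4649, 4869 and 4475 in 33D1 DCs, against 333.5, 220.7 and 343.6 in B cells (log2 difference 3.78, SE 0.24, adjusted p = 2.75e-11), and Nlrp3, the sensor of the best-known inflammasome, averaged 2043 ± 597.1 in 33D1 DCs and 153.5 ± 30.2 in B cells (SD, n = 3 each; log2 difference 3.34). Of 24 interferon response genes, 12 were higher and 4 lower in 33D1 DCs, with a median log2 difference of 0.67. Ifitm3, a restriction factor of endosomal virus entry, had 17217, 19238 and 17302 in 33D1 DCs, against 571.3, 963.3 and 643.1 in B cells (log2 difference 4.57, SE 0.18, adjusted p = 1.28e-14), and Ifih1, which encodes the RNA sensor MDA5, had 2794, 3095 and 2732 in 33D1 DCs, against 90.3, 247.9 and 142.5 in B cells (log2 difference 3.87, SE 0.23, adjusted p = 8.71e-12). Both genes were also above B cells in DEC205 DCs, at means of 6263 and 940.2. The 4 interferon genes called lower fell to 2 without B cell array 1 and to 1 without B cell array 2. Of 20 immediate early and heat shock genes, 7 were higher and 1 lower in 33D1 DCs, with a median log2 difference of 0.78, and their summed signal ranged over 114389 to 201526 in 33D1 DCs and 59771 to 142148 in B cells. Atf3, a stress-induced factor, had 3695, 6373 and 2184 in 33D1 DCs, against 50.6, 326.3 and 460.2 in B cells (log2 difference 3.82, SE 0.54, adjusted p = 7.13e-06), and its difference was 3.11 without B cell array 1. 33D1 array 2 was the highest for Atf3 as it was for Il1b, Ptgs2 and Ccl3, and the part of handling in these genes was not tested.

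Integrins, TNF receptors and the BCL2 family held genes of both directions, beside 15.6% higher and 17.8% lower over all genes. Of 15 integrin genes, 7 were higher and 1 lower in 33D1 DCs, with a median log2 difference of 0.47, with Itgam, the CD11b chain, at 1377 ± 85.6 in 33D1 DCs and 99.9 ± 40.7 in B cells (log2 difference 3.3) and Itgb2, the shared β2 chain, at 16226 ± 750.6 in 33D1 DCs and 3972 ± 354.5 in B cells (log2 difference 2.02). Of 20 TNF receptor and NF-κB genes, 8 were higher and 4 lower in 33D1 DCs, with a median log2 difference of 0.24. Tnfrsf1a, the main TNF receptor, had 2301, 2110 and 2711 in 33D1 DCs, against 140.3, 68.7 and 210.1 in B cells (log2 difference 3.75, SE 0.19, adjusted p = 1.06e-12), while Tnfrsf13c, the BAFF receptor on which mature B cells depend, had 412.4, 338.9 and 432.4 in 33D1 DCs, against 9494, 11029 and 8365 in B cells (log2 difference -4.45, SE 0.25, adjusted p = 5.23e-12). Relb, an alternative NF-κB subunit, averaged 6776 ± 1434 in 33D1 DCs and 1047 ± 88.3 in B cells (log2 difference 2.62). Each of the last 3 genes separated the arrays without overlap. Within the BCL2 family of 13, 3 were higher and 5 lower in 33D1 DCs, with a median log2 difference of -0.02. Pmaip1, the death-promoting NOXA, had 11703, 14606 and 11718 in 33D1 DCs, against 341.3, 901.6 and 590.3 in B cells (log2 difference 4.35, SE 0.3, adjusted p = 1.51e-10), and Bcl2, the survival factor, had 308.6, 274.3 and 263.4 in 33D1 DCs, against 1730, 1670 and 1618 in B cells (log2 difference -2.38, SE 0.15, adjusted p = 1.69e-11). Without B cell array 1, 3 family members were called lower.

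B lineage transcription factors were lower in 33D1 DCs in 17 of 19 tested (beside 17.8% of all genes), with a median log2 difference of -2.04. None was higher (limma, 0 at an unadjusted p under 0.05), beside 15.6% of all genes. Ebf1, which fixes B cell fate, had 10.9, 8.9 and 19.4 in 33D1 DCs, against 3562, 3284 and 2980 in B cells (log2 difference -5.75, SE 0.25, adjusted p = 7.63e-14). Pax5, which keeps B cell identity, had 162.7, 104.9 and 246.1 in 33D1 DCs, against 1174, 818.9 and 574 in B cells (log2 difference -2.04, SE 0.44, adjusted p = 0.000993). Both were as low in DEC205 DCs, which averaged 16.7 for Ebf1 and 182.5 for Pax5. Ets1 (-5.05), Bach2 (-3.98), Ikzf3 (-3.58), Foxo1 (-2.28), Foxp1 (-2.23), Klf2 (-1.86) and Klf3 (-0.83) were lower by amounts that also put 33D1 DCs below T cells, whose Ets1 means were 22819 and 20319. Tcf3 (-1.3) and Zfp318 (-2.08) were lower too. Others kept a sizeable signal in 33D1 DCs. Spib, an Ets factor related to PU.1, had 2697, 2253 and 1736 in 33D1 DCs, against 16353, 12706 and 12901 in B cells (log2 difference -2.64, SE 0.29, adjusted p = 2.13e-07). Mef2c had 2598, 2968 and 2637 in 33D1 DCs, against 7799, 8092 and 8495 in B cells (log2 difference -1.56, SE 0.24, adjusted p = 2.19e-05). Hhex (-0.73) and Lmo2 (-0.76) were lower by less than 2-fold, and Pou2f2, the octamer factor OCT2, at -0.88 lost its call without array 1 or 2 of either group (adjusted p = 0.0505 to 0.0824). Bcl11a, needed for early B cells and for plasmacytoid DCs, was held at a like level (log2 difference 0.25, 95% interval -0.31 to 0.8), as was Ikzf1, the gene of Ikaros (log2 difference -0.26, 95% interval -0.48 to -0.03).

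The signalling chains of the B cell receptor were far lower in 33D1 DCs, and members beneath them ranged from far lower to higher. Of 20 tested genes, 3 were higher and 12 lower in 33D1 DCs (beside 15.6% and 17.8% of all genes). The median log2 difference was -0.52, and 8 were held at a like level, a smaller share than the 63% of all genes. Cd79b had 905.7, 835.4 and 706.8 in 33D1 DCs, against 32292, 27763 and 32642 in B cells (log2 difference -5.16, SE 0.26, adjusted p = 9.04e-13). It thus had 2.64% of its B cell signal, above DEC205 DCs with 128.3, 106.1 and 131.5 (log2 difference 2.34, SE 0.26, adjusted p = 5.95e-07), but no higher than CD8 T cells with 862.9, 885.7 and 1004. Ighm had 7868, 8255 and 6012 in 33D1 DCs, against 31172, 27526 and 32590 in B cells, and its signals of 7257, 6728 and 8210 in DEC205 DCs and 15294 on average in CD4 T cells were as high or higher in cells not known to make IgM. Blk, a Src family kinase of B cells, was lower at 6.17% of the B cell signal (log2 difference -3.93, SE 0.38, adjusted p = 3.35e-08), and Bank1, an adaptor of the receptor's kinases, at 9.2% (log2 difference -3.4, SE 0.28, adjusted p = 1.92e-09). Syk, the kinase that CD79 chains recruit, had 4120, 4118 and 3246 in 33D1 DCs, against 9884, 7816 and 7345 in B cells (log2 difference -1.11, SE 0.18, adjusted p = 3.98e-05), which is 45.9% of the B cell signal, and Btk, which acts after Syk, stood at 45.1% (log2 difference -1.13, SE 0.3, adjusted p = 0.00592). Plcg2, the phospholipase that follows, was at 72.8%, a call lost without 33D1 array 3 (adjusted p = 0.102) or B cell array 1 (0.096). Rasgrp3 (-1.16), Bcl10 (-0.53) and Vav1 (-0.51) were lower.

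Several members further down the pathway were not called. Prkcb, the protein kinase C of the B cell NF-κB pathway, had 12708, 12386 and 9138 in 33D1 DCs, against 10390, 10572 and 9545 in B cells (log2 difference 0.15, 95% interval -0.1 to 0.4). Malt1, its partner with BCL10, had 4288, 4998 and 4782 in 33D1 DCs, against 3972, 4722 and 3964 in B cells (log2 difference 0.15, 95% interval -0.09 to 0.39). Ptpn6, the phosphatase SHP-1 that inhibitory receptors recruit, had 13664, 11665 and 11263 in 33D1 DCs, against 14588, 13853 and 15667 in B cells (log2 difference -0.27, 95% interval -0.56 to 0.02). The intervals of these 3 genes stayed within 2-fold, and Pik3ap1 (-0.06) and Vav2 (0.51) overlapped between the groups. Prkcb had 3 kept probe sets, and 1 of them was called higher in 33D1 DCs. Pik3cd (1.08), Dapp1 (1.06) and Inpp5d (0.57), of the phosphoinositide branch, were called higher in 33D1 DCs.

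Surface receptors of B cells were the list with the lowest median, a list also written with earlier results of these data known. Of 19 tested, 18 were lower in 33D1 DCs (beside 17.8% of all genes), with a median log2 difference of -4.24. None was higher (limma, 0 at an unadjusted p under 0.05), beside 15.6% of all genes. Fcer2a, the low-affinity IgE receptor CD23, had 134, 135.3 and 181.6 in 33D1 DCs, against 13363, 13216 and 12516 in B cells (log2 difference -6.05, SE 0.3, adjusted p = 4.86e-13). Cxcr5, which guides B cells into follicles, had 116.5, 127.5 and 189.4 in 33D1 DCs, against 8190, 9055 and 9186 in B cells (log2 difference -5.54, SE 0.25, adjusted p = 1.4e-13). Ms4a1, which encodes CD20, had 1355, 1502 and 1125 in 33D1 DCs, against 30936, 26772 and 30747 in B cells (log2 difference -4.43, SE 0.29, adjusted p = 6.24e-11), at 4.5% of the B cell signal, and DEC205 DCs had 2198, 1816 and 2345. Fcrla (-5.44), Cr2 (-4.69), Cd24a (-4.24), Cd37 (-3.47), S1pr1 (-3.26), Cd81 (-1.93) and Cd180 (-0.72) were lower as well, Cd180 not without 33D1 array 3 (adjusted p = 0.0758). Tnfrsf13b, the receptor TACI for BAFF and APRIL, was much nearer to B cells, with 3006, 3466 and 2755 in 33D1 DCs, against 8302, 7634 and 8404 in B cells (log2 difference -1.39, SE 0.16, adjusted p = 3.44e-07), with 142.3, 171 and 257.2 in DEC205 DCs. Siglecg was the 1 member not called.

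Receptors for migration were more often lower than higher in 33D1 DCs. Of 20 tested, 3 were higher and 9 lower in 33D1 DCs (beside 15.6% and 17.8% of all genes), with a median log2 difference of -0.33. S1pr3 averaged 68.3 ± 85.3 in 33D1 DCs and 1542 ± 458.8 in B cells (SD, n = 3 each; log2 difference -3.97), S1pr4 263.9 ± 70.5 in 33D1 DCs and 3681 ± 724.7 in B cells (-3.58) and Cnr2, a cannabinoid receptor of marginal zone B cells, 508.7 ± 89.4 in 33D1 DCs and 4276 ± 459.1 in B cells (-2.96). These are receptors of lipid mediators that hold or release cells within the spleen. Ccrl2, an atypical chemokine receptor, was higher in 33D1 DCs, with 2342, 4252 and 2020 in 33D1 DCs, against 69.5, 176.9 and 191.3 in B cells (log2 difference 3.9, SE 0.32, adjusted p = 2.03e-09). Ccr6 is described with the shared genes below.

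Housekeeping pathways had small median differences, but calls were no rarer than over all genes. There 15.6% were higher, 17.8% lower and 63% held at a like level. Cytosolic ribosomal protein genes were called lower in 12 of 22 and higher in none (limma, 0 at an unadjusted p under 0.05), with a median of -0.37, and Rpl10a had 20636, 24625 and 22634 in 33D1 DCs, against 32446, 35183 and 38808 in B cells (log2 difference -0.65, SE 0.13, adjusted p = 0.000328). Many of these signals lie near the top of the scale, whose highest signal per array was 32910 to 39544 in 33D1 DCs and 43236 to 48386 in B cells, and the count was 4 with quantile normalization, 5 without 33D1 array 1 or B cell array 3, 6 without 33D1 array 3 and 7 without B cell array 1. Of 18 glycolysis genes, 3 were higher and 5 lower in 33D1 DCs, with a median log2 difference of 0.04. Slc2a3, the glucose transporter GLUT3, had 8632, 8792 and 6764 in 33D1 DCs, against 2120, 2483 and 2312 in B cells (log2 difference 1.78, SE 0.19, adjusted p = 1.88e-07), while Slc2a1, GLUT1, had 717.2, 636.4 and 582.4 in 33D1 DCs, against 1964, 2159 and 2240 in B cells (log2 difference -1.65, SE 0.13, adjusted p = 9.07e-10), on the opposite side. Without B cell array 3, 5 glycolysis genes were called higher. Of 17 cholesterol genes, 2 were higher and 4 lower in 33D1 DCs, with a median log2 difference of -0.13, with Abca1, a cholesterol exporter, at 200 ± 26.2 in 33D1 DCs and 4698 ± 890 in B cells (log2 difference -4.24), and the number called lower was 2 without 33D1 array 2 or 3 or B cell array 3. Of 24 lysosome genes, 9 were higher and 3 lower in 33D1 DCs, with a median log2 difference of 0.24, and 18 were held at a like level.

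Most genes of class II antigen presentation were held at like levels in the cell types. Of 15 tested genes of class II molecules, chaperones and regulators, 12 were held at a like level (63% of all genes were). Of the 15, 2 were called higher and 1 lower (beside 15.6% and 17.8% of all genes), and the median log2 difference was -0.07. H2-Aa, the I-A α chain, had 29141, 31482 and 33218 in 33D1 DCs, against 36422, 32966 and 36221 in B cells (log2 difference -0.17, 95% interval -0.83 to 0.49). H2-Ab1, its β chain, had 30470, 33016 and 29399 in 33D1 DCs, against 26081, 26720 and 31347 in B cells (log2 difference 0.15, 95% interval -0.56 to 0.85). Cd74, the invariant chain that escorts them, had 32910, 36297 and 35002 in 33D1 DCs, against 40203, 37012 and 41711 in B cells (log2 difference -0.19, 95% interval -0.76 to 0.38). These signals lie close to the highest on each array, and whether the scale's upper end hides a difference was not tested. T cells gave 480.2 on average in CD4 and 689.5 in CD8 cells for H2-Aa. H2-Eb1 (-0.07), H2-DMa (0.21), Rfx5 (0.15) and Rfxap (-0.24) overlapped between the groups, and Rfxank (-0.33) was not called.

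**Figure D2:**
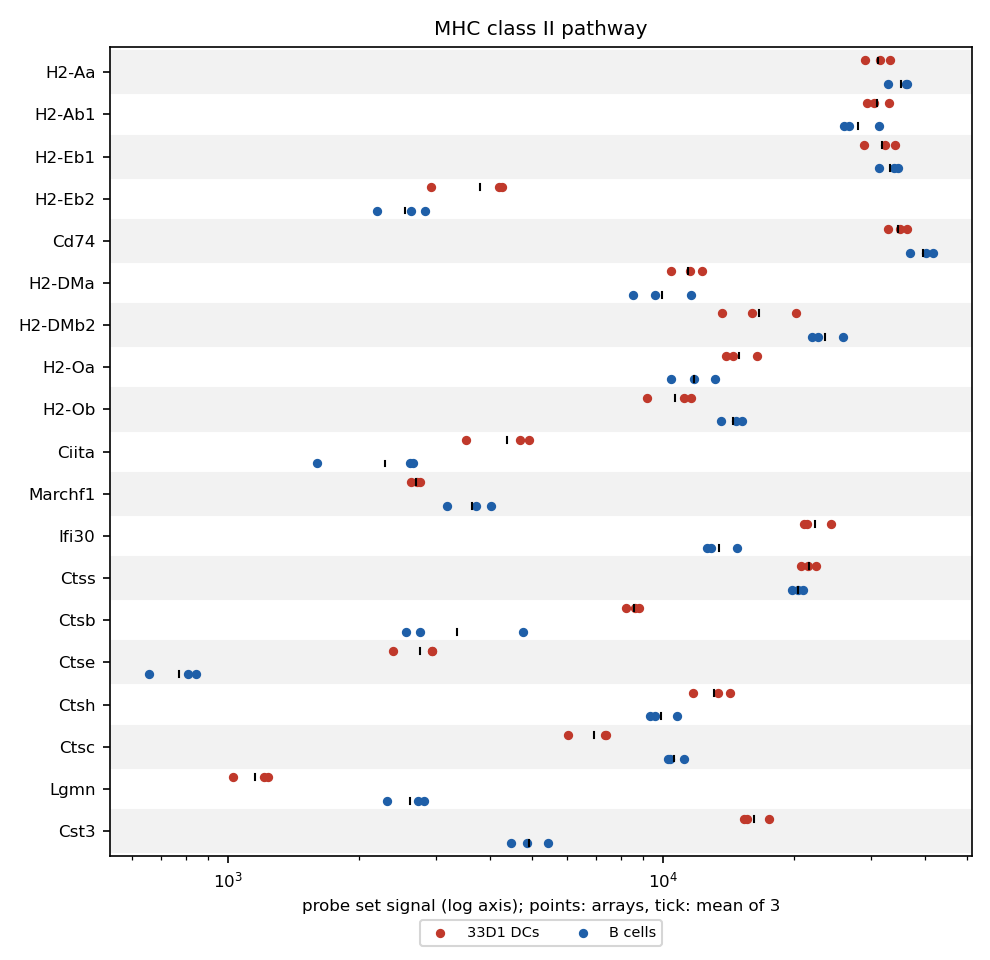
Probe set signals (log axis) of class II genes, regulators and proteases on the 3 33D1 DC arrays (red, upper row of each gene) and 3 B cell arrays (blue, lower row), with ticks at group means. The chains H2-Aa, H2-Ab1, H2-Eb1 and Cd74 overlap or nearly meet at the top of the scale, while Ifi30, Ctsb, Ctse and Cst3 are higher in 33D1 DCs and Lgmn and Ctsc lower.

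Regulators and editors of class II showed small differences of both signs. Ciita, the transcription factor that turns class II genes on, had 4692, 4920 and 3525 in 33D1 DCs, against 2613, 2654 and 1599 in B cells (log2 difference 0.94, SE 0.31, adjusted p = 0.0243). The call was lost without 33D1 array 1 or 2 or B cell array 3 (adjusted p = 0.0741 to 0.13). H2-Ob, the β chain of the inhibitor H2-O, had 9196, 11171 and 11596 in 33D1 DCs, against 15161, 14715 and 13610 in B cells (log2 difference -0.45, SE 0.11, adjusted p = 0.00213), while its partner H2-Oa had 13933, 16438 and 14514 in 33D1 DCs, against 10421, 11763 and 13144 in B cells (log2 difference 0.35, SE 0.14, adjusted p = 0.0743), called without B cell array 3 (adjusted p = 0.0466). Marchf1, the ligase that removes class II from the surface, had 2759, 2636 and 2716 in 33D1 DCs, against 3710, 4020 and 3192 in B cells (log2 difference -0.42, SE 0.16, adjusted p = 0.0524) and was called without B cell array 3 (adjusted p = 0.0353). Arrays did not overlap for these last 3 genes, and each difference was under 2-fold. Ifi30, the thiol reductase GILT of endosomes, was higher with 21048, 24378 and 21473 in 33D1 DCs, against 14812, 12635 and 12917 in B cells (log2 difference 0.73, SE 0.11, adjusted p = 2.22e-05).

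The proteases that cut antigen and invariant chain differed more than the class II chains. Of 15 cathepsins, legumain and cystatins, 6 were higher and 4 lower in 33D1 DCs (beside 15.6% and 17.8% of all genes). Their median log2 difference was 0.32. Ctss, the cathepsin that finishes invariant chain removal in both cell types, had 20750, 21596 and 22445 in 33D1 DCs, against 20954, 19753 and 20482 in B cells, and it was not called (log2 difference 0.08). Ctsb had 8807, 8608 and 8239 in 33D1 DCs, against 2568, 2760 and 4773 in B cells (log2 difference 1.39, SE 0.17, adjusted p = 7.11e-07), Ctse averaged 2762 ± 317.9 in 33D1 DCs and 769.4 ± 97.4 in B cells (log2 difference 1.78) and Cst3, the cystatin C gene, had 15608, 17498 and 15318 in 33D1 DCs, against 4861, 4466 and 5440 in B cells (log2 difference 1.71, SE 0.15, adjusted p = 6.09e-09). A different probe set of Ctse was called the other way. Lgmn, an asparagine-specific endopeptidase, was lower with 1209, 1232 and 1025 in 33D1 DCs, against 2738, 2323 and 2814 in B cells (log2 difference -1.15, SE 0.17, adjusted p = 1.12e-05), and B cells also had more Ctsc, at 6935 ± 771.4 in 33D1 DCs and 10607 ± 516.7 in B cells (log2 difference -0.61). DEC205 DCs had a Cst3 mean of 40090.

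Genes of class I loading differed by less than 2-fold. All 18 tested genes were held at a like level, beside 63% of all genes. Of the 18, 3 were called higher (16.7%, near the 15.6% of all genes). None was called lower (limma, 1 at an unadjusted p under 0.05), beside 17.8% of all genes. Psmb9, an immunoproteasome subunit, had 9433, 8134 and 8065 in 33D1 DCs, against 4285, 5452 and 6594 in B cells (log2 difference 0.66, SE 0.14, adjusted p = 0.000621). Erap1 (0.44) and Psme1 (0.31) lost their calls without single arrays: Erap1 without 33D1 array 1 or 3 or B cell array 1, Psme1 without any of the 33D1 arrays or B cell array 1 or 2. Tapbp, the tapasin gene, had 8064, 8209 and 8120 in 33D1 DCs, against 9300, 9658 and 9803 in B cells (log2 difference -0.24, 95% interval -0.47 to 0.00), and the intervals of the transporters and the class I heavy chains likewise lay within 2-fold.

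A list of ligands that instruct T cells, which also holds the receptors Havcr2 and Cd200r1, was unequal between the cell types. Of 19 tested, 9 were higher and 4 lower in 33D1 DCs (beside 15.6% and 17.8% of all genes), with a median log2 difference of 0.51. Cd80, a ligand of CD28 and CTLA-4, had 1343, 1871 and 1868 in 33D1 DCs, against 196.3, 265.3 and 151.1 in B cells (log2 difference 2.79, SE 0.36, adjusted p = 2.25e-06), and Havcr2, which encodes TIM-3, had 3446, 3618 and 3381 in 33D1 DCs, against 37.6, 20.7 and 78.1 in B cells (log2 difference 5.28, SE 0.18, adjusted p = 2.13e-15). Cd200r1, the inhibitory receptor for CD200, averaged 672.3 ± 131.2 in 33D1 DCs and 66.4 ± 50.6 in B cells (log2 difference 2.73), whereas its ligand Cd200 had 345.6, 434.2 and 251.8 in 33D1 DCs, against 1688, 1598 and 1797 in B cells (log2 difference -2.18, SE 0.24, adjusted p = 1.8e-07). Receptor and ligand therefore sat on opposite sides. The number called lower was 2 of 19 with arrays centred on their medians. Icosl, the ligand of ICOS, overlapped between the groups at 5643 ± 1206 in 33D1 DCs and 4808 ± 471.1 in B cells and Pdcd1lg2, PD-L2, was not called at 1468 ± 18.8 in 33D1 DCs and 1018 ± 75.6 in B cells (SD, n = 3 each), and both are among the shared genes described next.

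Sharing was read against the remaining groups. A gene was put in the shared set if both 33D1 DCs and B cells exceeded DEC205 DCs, CD4 T cells and CD8 T cells by at least 2-fold with an adjusted p under 0.05, which makes 6 comparisons. This rule selected 52 of 13284 genes (0.391%). The rule fixes that these genes are high in both groups and says nothing on how 33D1 DCs compare with B cells. Beside the background of 15.6% and 17.8%, of the 52 genes 3 were higher in 33D1 DCs than in B cells, 17 were lower and 32 were not called, and 15 were held at a like level, a smaller share than the 63% of all genes. The median log2 difference from B cells was -0.2. The set numbered 46 to 53 when any 1 array of the 5 groups was left out, 48 without 33D1 array 2, 47 without B cell array 3 and 53 without DEC205 array 3.

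The shared set opens with genes whose smallest difference over the 6 comparisons was largest. Cybb, the membrane subunit gp91phox of the phagocyte NADPH oxidase, had 6480, 6803 and 5647 in 33D1 DCs, against 6303, 7469 and 8228 in B cells. DEC205 DCs had 140.4, 112.3 and 413, CD4 T cells 325.3, 118.4 and 320 and CD8 T cells 132.4, 155 and 116.7. The 33D1 and B cell arrays overlapped and their difference was within 2-fold (log2 difference -0.21, 95% interval -0.85 to 0.42). Cd22, an inhibitory sialic acid receptor best known on B cells, had 6675, 6744 and 4894 in 33D1 DCs, against 20501, 19012 and 18920 in B cells, with 690.6, 527.5 and 900.8 in DEC205 DCs. All 33D1 arrays lay between the B cell and the DEC205 arrays (log2 difference -1.68, SE 0.28, adjusted p = 5.41e-05 against B cells). Siglecg, a related receptor that restrains B cells of the B1 kind, had 6022, 5889 and 4977 in 33D1 DCs, against 9881, 8965 and 7432 in B cells, with 585.2, 560.8 and 649.1 in DEC205 DCs, and the 33D1 arrays lay below B cells without a call (log2 difference -0.63, SE 0.31, adjusted p = 0.145). Spib, given above, had 15.9% of its B cell signal in 33D1 DCs and 157.8 on average in DEC205 DCs.

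Promoters are shown for 3 genes of the shared set, chosen because a window holds letters that known factors of both lineages bind, and for 2 class II genes that are not in that set, since DEC205 DCs held them as high (32545 on average for H2-Aa and 33958 for H2-Eb1). PU.1 and SPI-B, Ets factors, bind the core GAGGAA, and a CCAAT box is a known part of class II promoters. The sequences are RefSeq's, on GRCm38.p6, from 250 bases before to 50 after the annotated start, 5′ to 3′ on the gene's strand. In the first 3, capitals mark GAGGAA on either strand, so that TTCCTC is the reverse match. Cybb lies on the minus strand at chrX:9469275-9469574, Siglecg on the plus strand at chr7:43407989-43408288 and Fcrl1, an Fc receptor-like protein of B cells, on the plus strand at chr3:87376137-87376436. A second annotated window of Siglecg, at chr7:43408030-43408329, holds no match of GAGGAA.
Cybb: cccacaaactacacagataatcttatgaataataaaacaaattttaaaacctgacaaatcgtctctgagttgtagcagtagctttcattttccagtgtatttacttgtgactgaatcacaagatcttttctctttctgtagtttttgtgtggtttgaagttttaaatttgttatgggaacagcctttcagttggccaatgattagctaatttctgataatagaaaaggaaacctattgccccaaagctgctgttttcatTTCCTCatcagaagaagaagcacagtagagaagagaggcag
Siglecg: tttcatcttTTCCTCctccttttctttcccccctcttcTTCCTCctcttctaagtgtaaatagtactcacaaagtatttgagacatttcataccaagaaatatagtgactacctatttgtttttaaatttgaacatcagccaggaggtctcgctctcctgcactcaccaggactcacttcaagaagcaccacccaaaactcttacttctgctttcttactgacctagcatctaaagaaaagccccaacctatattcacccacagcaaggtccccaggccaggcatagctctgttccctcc
Fcrl1: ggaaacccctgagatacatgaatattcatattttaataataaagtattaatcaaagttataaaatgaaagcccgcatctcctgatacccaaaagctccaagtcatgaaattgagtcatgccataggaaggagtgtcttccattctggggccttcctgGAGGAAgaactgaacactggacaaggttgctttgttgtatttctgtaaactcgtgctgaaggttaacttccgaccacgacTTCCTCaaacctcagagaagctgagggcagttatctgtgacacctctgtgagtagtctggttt
The Cybb match lies 9 to 14 bases after the start and overlaps, at 3 to 12, the composite element that Ets factors bind with IRF4 or IRF8, which is GGAA and GAAA with 2 bases between them. The class II pair is H2-Aa on the minus strand at chr17:34287774-34288073 and H2-Eb1 on the plus strand at chr17:34305617-34305916, with CCAAT or its reverse ATTGG in capitals.
H2-Aa: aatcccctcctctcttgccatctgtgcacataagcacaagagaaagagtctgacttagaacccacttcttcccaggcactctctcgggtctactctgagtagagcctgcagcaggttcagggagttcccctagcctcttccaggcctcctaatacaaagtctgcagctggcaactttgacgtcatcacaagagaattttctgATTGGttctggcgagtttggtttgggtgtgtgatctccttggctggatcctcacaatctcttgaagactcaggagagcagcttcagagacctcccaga
H2-Eb1: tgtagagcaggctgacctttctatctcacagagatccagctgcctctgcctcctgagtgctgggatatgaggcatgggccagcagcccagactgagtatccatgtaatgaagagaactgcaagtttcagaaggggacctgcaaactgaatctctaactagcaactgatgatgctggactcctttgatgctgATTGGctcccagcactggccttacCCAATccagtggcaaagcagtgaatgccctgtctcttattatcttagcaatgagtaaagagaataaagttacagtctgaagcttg

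Of the 52 shared genes, 41 matched 53 promoter windows by symbol, and GAGGAA occurred in 22 of these windows (41.5%), against 28.3% of all 32851 windows of the same length. Irf4, Ccr6, Cyp4f18 and Mef2c had a window with a match, while Cd22, Spib, Bank1 and Tnfrsf13b had none. The composite element occurred in 2 windows (3.77%, against 2.72% of all), those of Cybb and Bank1, and CCAAT in 37.7% (37.4% of all). Class II genes had 8 windows, those of H2-Aa, H2-Eb1, H2-Eb2, H2-DMa, H2-DMb2, H2-Oa and H2-Ob. CCAAT occurred in 7 of these windows (87.5%). No window matched H2-Ab1 or Cd74 by symbol, so they are not in that share. Windows of 1 gene overlap and are not independent, and a match is a description of the letters.

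**Figure D3:**
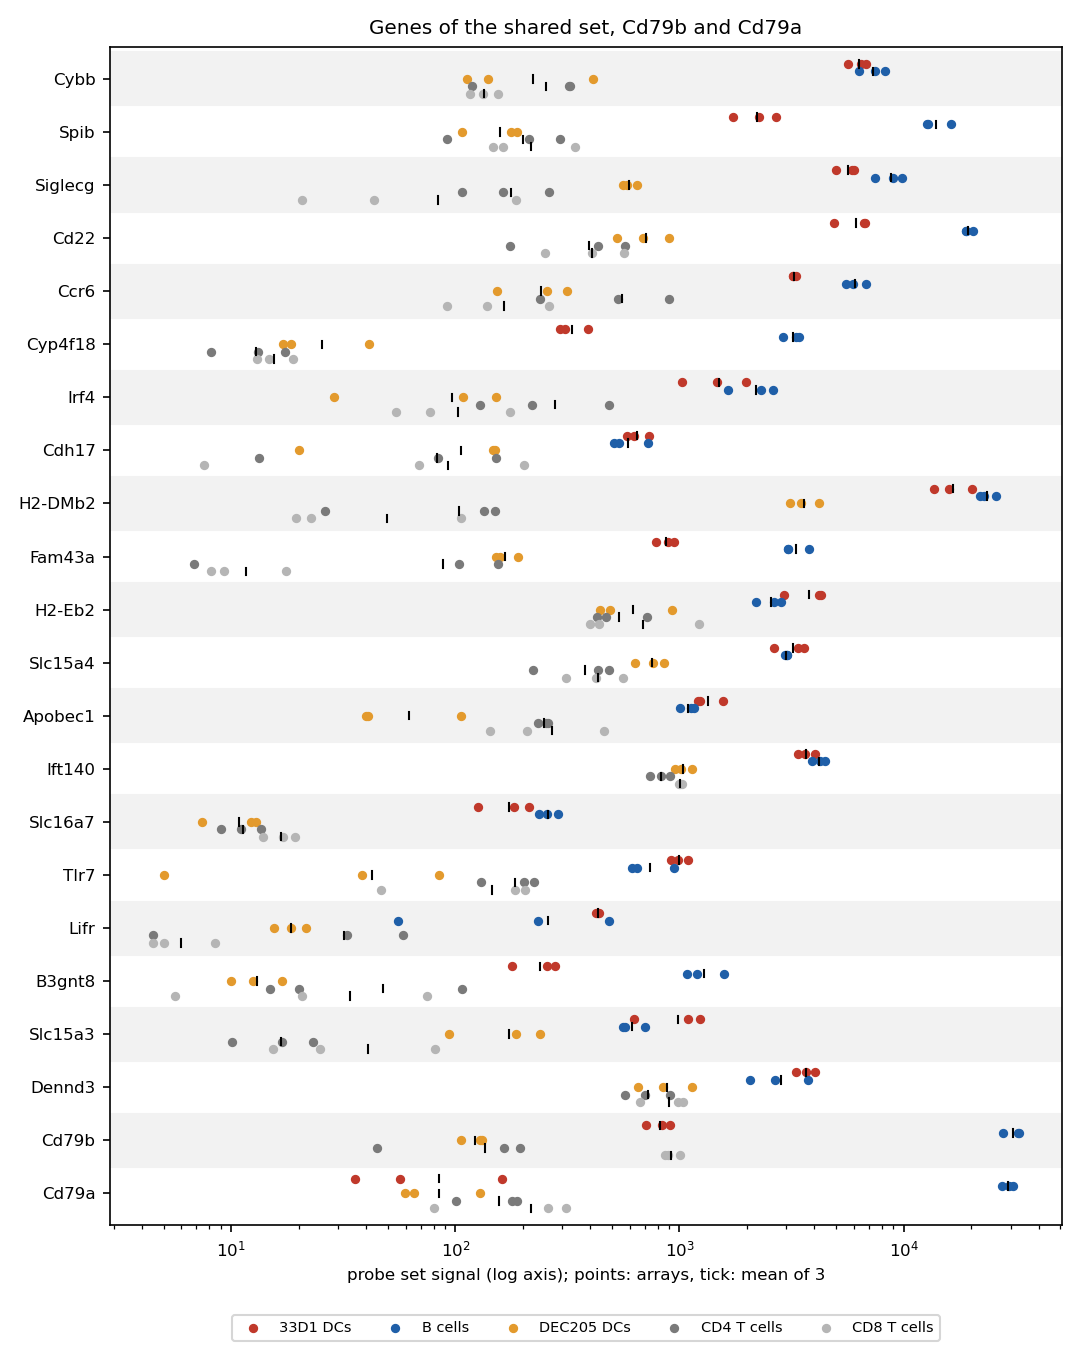
Probe set signals (log axis) of the 20 shared genes with the largest smallest difference, then Cd79b and Cd79a, on 3 arrays each of 33D1 DCs (red), B cells (blue), DEC205 DCs (orange), CD4 T cells (dark grey) and CD8 T cells (light grey), ticks marking means. Red and blue points lie to the right of the others for the 20 genes, except a blue point of Lifr (55.6, beside 58.4 on a CD4 T cell array). For Cd79b red points fall among the CD8 T cells and for Cd79a among all cells other than B cells.

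Transcription factors and receptors for migration among the shared genes covered a wide range relative to B cells. Irf4, the IRF that drives CD8-negative DCs and plasma cell formation, had 1475, 1989 and 1027 in 33D1 DCs, against 1646, 2309 and 2618 in B cells, with 28.9, 108.1 and 151.9 in DEC205 DCs, and the groups overlapped (log2 difference -0.56, 95% interval -1.35 to 0.23). Ccr6, the receptor of CCL20, had 3205, 3311 and 3227 in 33D1 DCs, against 5517, 6784 and 5952 in B cells (log2 difference -0.89, SE 0.32, adjusted p = 0.0376), and leaving out any array of either group ended the call (adjusted p = 0.0593 to 0.114). Its DEC205 signals were 153.6, 257.6 and 314.7. Cdh17, a cadherin of gut and of some B cells, had 582.4, 625.4 and 732.9 in 33D1 DCs, against 538.8, 510.1 and 726.7 in B cells (log2 difference 0.13, 95% interval -0.85 to 1.1). Neither the Irf4 nor the Cdh17 interval lay within 2-fold, so a like level was not shown. Tcf4, the E protein of plasmacytoid DCs, averaged 1430 ± 212.9 in 33D1 DCs and 3534 ± 248.5 in B cells (log2 difference -1.29), beside 646 in DEC205 DCs.

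Enzymes, transporters and class II variants made up much of the rest. H2-Eb2, a lesser known class II β gene, had 4200, 4265 and 2933 in 33D1 DCs, against 2199, 2830 and 2636 in B cells, with 443.3, 492 and 925 in DEC205 DCs (log2 difference 0.55, 95% interval -0.13 to 1.23). H2-DMb2, a β chain of the peptide editor H2-DM, had 16021, 20240 and 13628 in 33D1 DCs, against 22729, 25941 and 22018 in B cells, with 3108, 3502 and 4178 in DEC205 DCs. It is nearly identical to H2-DMb1, so the probes may not tell them apart. Apobec1, a cytidine deaminase that edits RNA, had 1570, 1233 and 1215 in 33D1 DCs, against 1126, 1157 and 1001 in B cells (log2 difference 0.27, 95% interval -0.27 to 0.81). Slc15a4, a histidine and peptide transporter of endolysosomes that Toll-like receptor signalling needs, had 3364, 3592 and 2629 in 33D1 DCs, against 3006, 3015 and 2959 in B cells (log2 difference 0.08, 95% interval -0.36 to 0.52). Tlr7, the endosomal receptor of single-stranded RNA, had 1089, 986.5 and 919.5 in 33D1 DCs, against 648.7, 941.4 and 615.5 in B cells (log2 difference 0.44, 95% interval -0.34 to 1.22), with 5, 38.5 and 84.6 in DEC205 DCs. The 33D1 and B cell arrays overlapped for Slc15a4 and Tlr7, and Apobec1 was above B cells on every 33D1 array without a call. Slc15a3 (0.6), a related transporter, was called higher without 33D1 array 3 (adjusted p = 0.0395).

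The remaining members of the first 20 were Cyp4f18 (-3.11 relative to B cells), a fatty acid hydroxylase of leukotriene breakdown, Fam43a (-1.86), Ift140 (-0.19), Slc16a7 (-0.49), Lifr (0.94), B3gnt8 (-2.22) and Dennd3 (0.4). Lifr, the receptor of leukaemia inhibitory factor, had 437.3, 426 and 431.4 in 33D1 DCs, against 483.8, 234.5 and 55.6 in B cells, with 1 low B cell array without which it was called (log2 difference 1.48, adjusted p = 0.00472). Dennd3 was called without that array too (adjusted p = 0.0353). Carmil1, Abi3 and Serpinb7 were the 3 shared genes higher in 33D1 DCs than in B cells, at 1393 ± 96.7 in 33D1 DCs and 645.6 ± 79.7 in B cells, 2660 ± 572.1 in 33D1 DCs and 1768 ± 30.5 in B cells and 483.6 ± 46.1 in 33D1 DCs and 309.3 ± 36.3 in B cells in turn (SD, n = 3 each), and they were named after their values were seen. At the other end Cr2, the complement receptor CD21, kept 3.43% of the B cell signal and Blk 6.17%, both above DEC205 DCs and T cells by the rule. Blk left the set without 33D1 array 1 or 3, CD4 T cell array 2 or 3 or CD8 T cell array 3, and Cr2 without CD4 T cell array 2 or CD8 T cell array 3.

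Some genes of the B cell lineage were at a very small share of the B cell signal. In 33D1 DCs, Cd79a, Blnk, Ly6d, Ebf1, Pou2af1 and Fcmr had 0.29, 0.349, 0.386, 0.399, 0.423 and 0.456% of their B cell signals. For 6 of the shared genes the same share was 86.1% for Cybb, 64.3% for Siglecg, 68.3% for Irf4, 53.4% for Ccr6, 37.9% for Tnfrsf13b and 31.3% for Cd22. The shared genes were selected for being high in 33D1 DCs, and the ranges meet: among shared genes Cr2 had 3.43%, Blk 6.17% and Spib 15.9%, while of the B cell genes outside the set Ms4a1 had 4.5%, Pax5 20% and Ighm 24.2%. Cd79b, at 2.64%, missed the shared set through CD8 T cells.

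The 52 genes were chosen for 33D1 DCs above DEC205 DCs in wild-type mice. The shares over all genes given beside them here therefore do not measure how well the set holds. The comparisons of the rule left out the Flt3L arrays. These arrays still entered the filter, the probe set choice and the estimate of spread. On them 46 of the 52 genes were called higher in 33D1 than in DEC205 DCs (11.5% of all genes were), 45 of them by at least 2-fold (5.24% of all genes), and none was lower (limma, with 0 at an unadjusted p under 0.05, against 11.6% of all genes called lower). The other 6, Lifr, Rhob, Pcp4, Ceacam1, Blk and Cr2, had positive differences without a call. The median log2 difference was 1.87 (0.04 over all genes), beside 2 in wild-type mice, where the rule had chosen them. Without DEC205 array 3 of the wild-type mice and 33D1 array 3 of the Flt3L mice, which stood apart, 45 of the 52 were called higher and the median was 1.95. Cybb had 6765, 8047 and 7759 in 33D1 DCs and 139.6, 252.9 and 193.6 in DEC205 DCs (log2 difference 4.98, SE 0.3, adjusted p = 6.23e-11). Cd22 had 6061, 6870 and 6254 in 33D1 DCs and 397.3, 388 and 512.9 in DEC205 DCs (log2 difference 3.75, SE 0.28, adjusted p = 1.08e-09), and Spib 3174, 2510 and 3063 in 33D1 DCs and 99.5, 135.7 and 208 in DEC205 DCs (log2 difference 3.95, SE 0.29, adjusted p = 9.34e-10). None of these arrays crossed between DC kinds. The difference between mice (Flt3L minus wild-type) was called for none of the 52 by limma with Benjamini-Hochberg adjustment, with 5 at an unadjusted p under 0.05, and for 8 of all genes (0.0602%).

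The same rule turned round, added after the values were seen, asked which genes B cells share with DEC205 DCs and not with 33D1 DCs. It selected 22 genes (0.166%). Irf8, given above, led them. Cd24a, a glycoprotein of immature lymphocytes and CD8-positive DCs, had 824.1, 1368 and 897.2 in 33D1 DCs, against 18919, 17494 and 23501 in B cells, with 12711, 14111 and 15383 in DEC205 DCs. Btla, an inhibitory receptor for HVEM, had 2279, 2932 and 2266 in 33D1 DCs, against 14921, 13969 and 11381 in B cells, with 13506, 15404 and 14575 in DEC205 DCs. Fcgr2b, the inhibitory IgG receptor, had 791.9, 888.2 and 779.1 in 33D1 DCs, against 6562, 7266 and 6015 in B cells, with 3597, 3404 and 3097 in DEC205 DCs. In each of the 3 genes every 33D1 array lay below every array of both other groups, an order that the rule itself favours. Cd36, Cd81, Fcrla and Rasgrp3 were also among the 22.

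A wider set took in genes that both 33D1 DCs and B cells hold over T cells, with 4 comparisons and no use of DEC205 DCs. It held 312 genes (2.35%), of which 117 were higher in 33D1 DCs than in B cells, 60 were lower and 128 (41%) were held at a like level, beside 15.6% higher, 17.8% lower and 63% at a like level over all genes. In DEC205 DCs, 244 of the 312 also exceeded both T cell groups by the same measure. Its 10 leading genes outside the shared set held class II chains, Cd74, Ly86 and Napsa. Ly86, the MD-1 partner of CD180, had 11479, 13399 and 11526 in 33D1 DCs, against 14268, 15356 and 18481 in B cells (log2 difference -0.4, 95% interval -1.07 to 0.28). Napsa, an aspartic protease, had 17679, 18970 and 16796 in 33D1 DCs, against 11874, 12039 and 16084 in B cells (log2 difference 0.43, 95% interval -0.12 to 0.98). Both differed by less than 2-fold without overlap of the arrays. Ctsh averaged 13128 ± 1321 in 33D1 DCs and 9902 ± 775.2 in B cells and Wdfy4, a protein needed for cross-presentation by CD8-positive DCs, 15428 ± 1153 in 33D1 DCs and 8193 ± 948.8 in B cells (SD, n = 3 each), the second called higher (log2 difference 0.91), and DEC205 DCs averaged 25258 for it. Marchf1 and Bcl11a completed the 10.

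A list written for receptors that inhibit through tyrosine motifs was divided between the cell types. Not every member inhibits through a motif of its own, Klrd1 and Fcrl1 among them. Of 23 tested, 9 were higher and 7 lower in 33D1 DCs (beside 15.6% and 17.8% of all genes), with a median log2 difference of 0.24. Klrd1, the CD94 chain of NK receptors, had 8286, 9170 and 10275 in 33D1 DCs, against 133.7, 141.7 and 182.1 in B cells (log2 difference 5.53, SE 0.21, adjusted p = 9.13e-15), and CD8 T cells averaged 11050. Cd300a, a receptor of phosphatidylserine, had 4874, 4576 and 4830 in 33D1 DCs, against 77.7, 58.3 and 96.1 in B cells (log2 difference 5.27, SE 0.25, adjusted p = 3.67e-13). Pirb, which binds MHC class I, had 3718, 4095 and 3910 in 33D1 DCs, against 589.1, 652.4 and 584.1 in B cells (log2 difference 2.59, SE 0.23, adjusted p = 9.69e-09), and Lair1, a collagen receptor, averaged 1582 ± 120.4 in 33D1 DCs and 109.3 ± 32.9 in B cells (log2 difference 3.39). Higher in 33D1 DCs besides these and Sirpa and Clec4a2 were Siglece (2.59), Vsir (2.13) and Cd5 (1.36). Lower were Fcgr2b (-2.94), Cd84 (-2.85), Btla (-2.41), Fcrl1 (-1.83), Cd72 (-1.79), Cd22 (-1.68) and Pecam1 (-0.66). Cd72, a lectin of B cells, still had 2466, 2624 and 2956 in 33D1 DCs, against 9170, 9393 and 9540 in B cells, while DEC205 DCs averaged 253.1. Ly9 overlapped between the groups (log2 difference -0.07, 95% interval -0.33 to 0.19), and Siglec1, Cd33, Pilra and Pdcd1 were not called. Ceacam1 was not called by its brightest probe set (adjusted p = 0.0686), while 5 of its 6 kept probe sets were called lower.

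**Figure D4:**
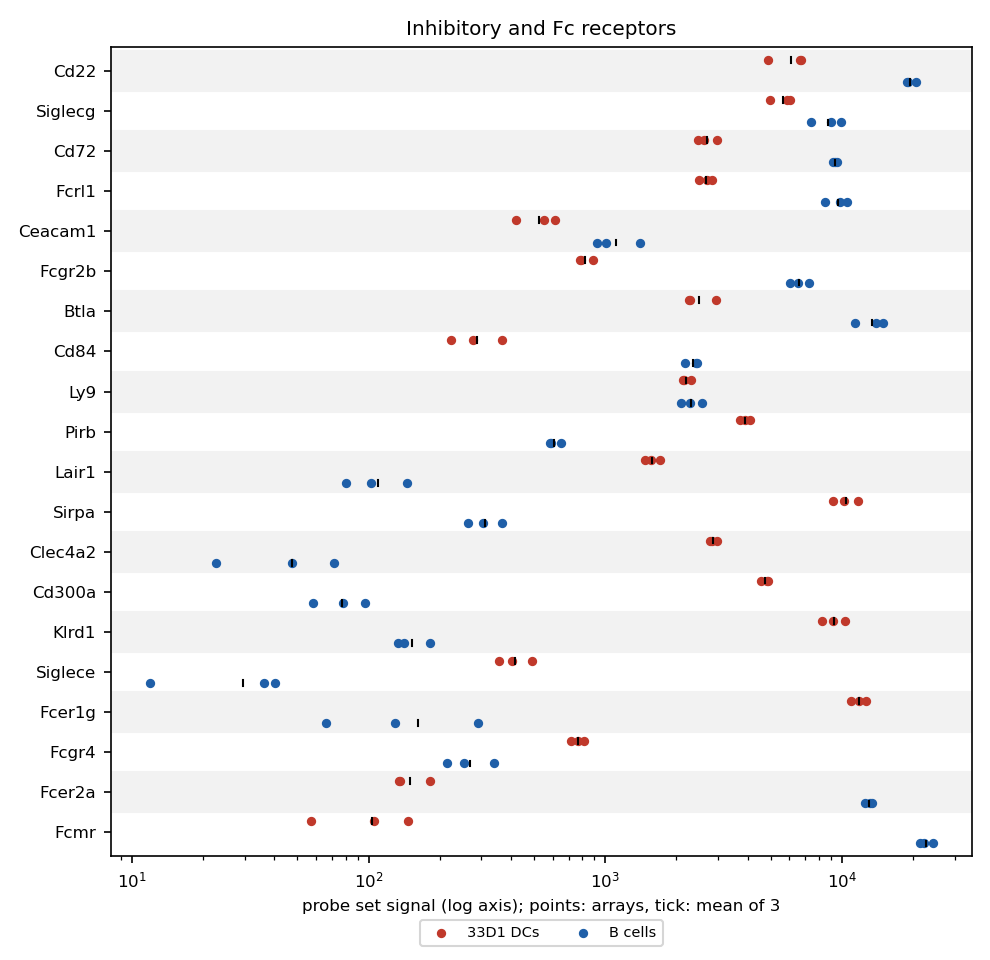
Probe set signals (log axis) of 20 genes from the lists of inhibitory and Fc receptors, with ticks at group means. Points are the 3 33D1 DC arrays (red, upper row of each gene) and 3 B cell arrays (blue, lower row). Cd22 to Cd84 lie lower in 33D1 DCs, Ly9 overlaps, Pirb to Fcgr4 lie higher, and Fcer2a and Fcmr are near background in 33D1 DCs; Siglecg and the probe set shown for Ceacam1 were not called.

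Fc receptors were divided as well. Of 11 tested, 2 were higher and 6 lower in 33D1 DCs (beside 15.6% and 17.8% of all genes), with a median log2 difference of -0.56. Fcer1g, the signalling γ chain of activating Fc receptors, had 11791, 12722 and 10933 in 33D1 DCs, against 65.9, 128.9 and 290.7 in B cells (log2 difference 5.96, SE 0.3, adjusted p = 8.13e-13), and Fcgr4, an activating IgG receptor that pairs with it, averaged 768.7 ± 49.6 in 33D1 DCs and 268.4 ± 63.9 in B cells (log2 difference 1.38). Fcgr2b, the inhibitory one, was the reverse (log2 difference -2.94, SE 0.23, adjusted p = 1.43e-09). Trim21, a cytosolic antibody receptor, was lower (-0.43), a call lost without 33D1 array 2 or B cell array 1 or 2 (adjusted p = 0.0584 to 0.0914). Fcgr1, Fcgrt and Ms4a2 overlapped between the groups.

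Both cell types held other genes of the phagocyte oxidase beside Cybb. Of 9 tested genes, 8 were held at a like level (63% of all genes were), 2 were higher and 4 lower in 33D1 DCs, with a median log2 difference of -0.21, beside 15.6% higher and 17.8% lower over all genes. Most members were thus called in 1 direction or the other, by less than 2-fold except for Hvcn1. Cyba, the p22phox partner of Cybb, had 16167, 17006 and 16866 in 33D1 DCs, against 13793, 14993 and 16938 in B cells (log2 difference 0.13, 95% interval -0.15 to 0.42), and Ncf1, the organising subunit p47phox, had 5949, 6183 and 5224 in 33D1 DCs, against 6801, 6631 and 5750 in B cells (log2 difference -0.14, 95% interval -0.52 to 0.24). Neither is limited to these cells, since DEC205 DCs averaged 13855 for Cyba and 4953 for Ncf1, while Cybb differed between the DC kinds by 4.72 (log2, 33D1 minus DEC205). Hvcn1, the proton channel that supports the oxidase, was lower at 1107, 1678 and 1282 in 33D1 DCs, against 9864, 8084 and 8374 in B cells (log2 difference -2.67, SE 0.27, adjusted p = 6.38e-08). Rac2 (-0.68), Cybc1 (-0.55) and Ncf4 (-0.42) were lower and Rac1 (0.48) and Rap1a (0.34) higher. With arrays centred on their medians neither of the last pair was called, and Rap1a was not called without 33D1 array 2 or B cell array 1 (adjusted p = 0.0601 and 0.0526).

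Toll-like receptors and their adaptors were called in both directions. Of 24 tested, 6 were higher and 6 lower in 33D1 DCs, with a median log2 difference of 0.23, beside 15.6% higher and 17.8% lower over all genes. Tlr13, a sensor of bacterial ribosomal RNA, had 1743, 1603 and 1551 in 33D1 DCs, against 96.8, 116.6 and 187.1 in B cells (log2 difference 3.24, SE 0.3, adjusted p = 1.64e-08), and Myd88, the shared adaptor, averaged 3926 ± 115.6 in 33D1 DCs and 1532 ± 30.1 in B cells (log2 difference 1.33). Tlr4, the receptor of lipopolysaccharide, averaged 194 ± 4.5 in 33D1 DCs and 532.7 ± 39.9 in B cells (log2 difference -1.26) and Irak3, a brake on the pathway, 119.6 ± 38.7 in 33D1 DCs and 539.5 ± 77.8 in B cells (log2 difference -1.82). Tlr7 was not called, as given above. A list of Src and Tec family kinases, which also holds Fes from outside these families, divided likewise. Of 9 tested, 3 were higher and 4 lower in 33D1 DCs, with a median log2 difference of 0.08. Fes, a myeloid tyrosine kinase, had 5576, 4928 and 3651 in 33D1 DCs, against 264.4, 259.3 and 251.7 in B cells (log2 difference 3.93, SE 0.2, adjusted p = 5.89e-13) and Fgr averaged 4415 ± 218.2 in 33D1 DCs and 758.1 ± 13.8 in B cells (log2 difference 2.47), whereas Tec, at 1059 ± 37.9 in 33D1 DCs and 3562 ± 204.3 in B cells (log2 difference -1.7), stood with Blk and Btk on the B cell side.

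Genes of secretory B cells were lower in 33D1 DCs in 4 of 7 tested (beside 17.8% of all genes). Mzb1, a chaperone of immunoglobulin assembly found in marginal zone and B1 cells as well as plasma cells, had 235.4, 263.5 and 302.4 in 33D1 DCs, against 13565, 13771 and 19397 in B cells (log2 difference -5.61, SE 0.23, adjusted p = 2.96e-14). Derl3, Sdc1 and Xbp1 were the others, with Derl3 highest on B cell array 3 at 411.7, 523.7 and 924.4. The summed signal of the list was 5907 to 6820 in 33D1 DCs and 22105 to 37911 in B cells, and its upper end in B cells was the array with the high Jchain signal. Apoe behaved likewise with 1848, 1240 and 1373 in 33D1 DCs, against 2195, 2451 and 5150 in B cells. The share of plasma cells in that pool was not tested.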

How the data were processed

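RNA of sorted spleen cells was measured on 21 arrays of the Affymetrix Mouse Genome 430 2.0 type, 3 for each of 7 groups taken from the sample titles. The deposited intensity values are 1 signal per probe set and array, which the authors made by the MAS5 method in GCOS according to the submitters' processing notes, and each array has a 2% trimmed mean of 500. Gene names came from the platform annotation: of 45101 probe sets, 34945 have 1 symbol, 932 several and 9160 none, and 34741 matched a RefSeq gene. Probe sets with 1 symbol and a signal over 156.3 (the table's median) on at least 3 arrays were kept, 23946 in all, and the one with the highest mean stands for each of 13284 genes. Log2(signal + 48.6), the offset being the table's 25th percentile, was fitted with limma 3.58.1 in R 4.3.3 (7 group means, 14 residual degrees of freedom, moderated with an intensity trend), and p-values were adjusted over the 23946 probe sets. With 3 arrays a group, their number limits the precision. On simulated data with normal noise and a known 2-fold change 88% of the changed probe sets were recovered, and with a 4-fold change 100%. Only probe sets with a mean signal over 500 were changed, so recovery of dimmer ones was not measured. The simulation gave 15 false calls among 34945 probe sets.

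Genes were named by a rule. It took the 15 highest and 15 lowest differences without overlap and the 20 leading shared genes. It also took the 10 leading genes over T cells outside the shared set and up to 4 members of each list by adjusted p. All members of the lists on class II, the B cell receptor, B cell surface, inhibitory and Fc receptors, the oxidase and B lineage factors were named. So were Itgax, Tgm2, Cd79a, Cybb, Cd22, Cd79b and Ly75. The members and lists were chosen with earlier results of these data known. Named outside the rule, after their values were seen, were Abi3, Apoe, Bcl6, Birc5, C1qb, Carmil1, Ccne1, Ccr7, Ccrl2, Cd200, Cd3d, Cd4, Cd80, Cd83, Clec7a, Csf2rb, Csf3r, Ctsc, Ctss, Dpp4, Dtx1, Icosl, Id2, Jchain, Lgmn, Ltb, Mcm2, Mki67, Nfil3, Nlrp3, Notch2, Nr4a3, Pcna, Pcp4, Pdcd1lg2, Rhob, S1pr3, Serpinb7, Spi1, Tapbp, Tlr4, Xcr1 and Zbtb46. Genes with no probe set of 1 symbol were not analysed here. Alternatives covered scaling, offset, filter, probe set choice, the prior of the spread, the arrays fitted, a replicate block and leaving out each array.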

Additional observations from a re-analysis of the deposited data

How the results depend on the processing

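Of the counts over all genes, 2 moved by more than 1.5 times: the shared set held 33 genes at an offset of 200, of which 32 were among the 52, and 5571 genes were held at a like level with a filter at the 75th percentile, where 8309 genes were tested. Leaving out single arrays of the groups compared gave 1821 to 2003 genes higher and 1960 to 2167 lower in 33D1 DCs, 46 to 53 shared genes, 295 to 316 over T cells and 7507 to 7616 at a like level. Other settings gave 1676 to 2149 higher and 1652 to 2425 lower. Equal replicate numbers did not pair the samples (their deviations correlated at -0.116, 0.088 and -0.093), and the replicate number as a block gave 2314 lower and 51 shared genes, and of the named genes it ended the call of Ccr6 (adjusted p = 0.0501 in limma). With arrays centred on their medians 50.4% of the calls were higher, against 46.6%. Of 201 called genes named by the rule, 180 were called in every setting that tested them, of 18 settings run (the filter at the 75th percentile left some out), and none of the 201 turned direction. Among lists, quantile normalization gave 4 ribosomal genes lower in place of 12 and 5 lysosome genes in place of 3. Without a filter on low values 6 ribosomal genes were lower. Centring on medians gave 1 interferon gene lower in place of 4, 1 class I gene higher in place of 3, 3 BCL2 genes lower in place of 5 and 1 lysosome gene lower. The causes were not tested. Signals near the floor or the top of an array limit what can be compared.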

Other observations

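Of 4441 called genes, 16 had a second probe set called in the opposite direction, and Ctse was the 1 among those named by the rule.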
